A study of Sus scrofa with 2 samples.

Results

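Immediate early response genes are the genes that a cell transcribes within minutes of a stimulus, without first having to make new protein. The 10 symbols studied here were FOS, FOSB, JUN, JUNB, EGR1, ATF3, IER2, DUSP1, NR4A1 and KLF4, each taken from the row of the gene list that carries exactly that symbol. Of the 22342 genes listed, 9 carried such a symbol, and JUN had no row, so its level was not analysed here and only the sequence before its gene was searched. The cells came from the ovary of 1 Landrace × Yorkshire pig aged 210 days, which the study's methods describe as primed with pregnant mare serum gonadotropin to make follicles grow. Its ovaries reached the laboratory within 2 h in cold buffer, healthy follicles over 7 mm across were opened, and the cells were freed by needle, pipetting and hyaluronidase. The somatic cells of follicle 1 made 1 droplet library and those of follicle 2 made another, both with a kit that counts the 3′ ends of messenger RNAs. The follicles carried no different treatment, so they were compared as 2 libraries without replicates, no test was made between them, and follicle and library cannot be told apart.

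In granulosa cells, the somatic cells that line the follicle and surround the egg, gonadotropins act through cyclic AMP and, by way of EGF-like ligands, through the ERK kinases. These kinases phosphorylate factors such as SRF partners and CREB that already sit at the promoters of early response genes, and the proteins made next are mostly transcription factors that act on later genes of ovulation. The response is usually brief because messengers such as that of FOS decay fast and because phosphatases such as DUSP1 switch the kinases off again. Many of the same genes are also known to rise while a tissue is cut and dissociated, and no undissociated sample was analysed here, so the part that handling had in any level was not tested.

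The sequence before the gene models was searched for 5 motifs, and none of the 5 was found at all members. In the 500 bases upstream of the 5′ end of each RefSeq gene model of Sscrofa11.1, the build to which the study's methods say the reads were aligned, 2 of the 10 genes (JUN included) held the CArG box bound by SRF, against 2.74% of 19554 protein-coding genes. The palindrome TGACGTCA, the full cyclic AMP response element, was found at 1 of the 10, against 2.03%, and its shorter part TGACG at 5 of the 10, against 30.2%. No member held the AP-1 motif TGANTCA (10.9% of all genes) or the EGR motif GCGTGGGCG (1.10%). With 10 genes searched, counts of 0 lie near those shares and are no finding about the members. FOS, FOSB, JUNB and ATF3 encode proteins that bind the first kind of motif and EGR1 the second. Whether each gene model starts where transcription starts was not checked. Both strands were searched, TGACG lies within every TGACGTCA, and a match is a description of the letters and not a site shown to be used. The 3 windows below are given because they hold the CArG boxes and the full cyclic AMP element, shown in capitals, and each reads 5′ to 3′ on the gene's own strand. The FOS window is chr7:98449027-98449086 on the plus strand, with the box 456 to 447 bases before the gene. The IER2 window is chr2:65912666-65912725 on the minus strand, with the box 209 to 200 bases before the gene. The DUSP1 window is chr16:51457846-51457905 on the plus strand, with the element 52 to 45 bases before the gene.
FOS: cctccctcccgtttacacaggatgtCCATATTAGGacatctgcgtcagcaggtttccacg
IER2: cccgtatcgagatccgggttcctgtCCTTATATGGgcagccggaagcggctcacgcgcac
DUSP1: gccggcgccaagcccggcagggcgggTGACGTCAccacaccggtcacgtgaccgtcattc

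Barcodes with 2000 to 5000 detected genes and mitochondrial transcripts below 7% of their UMIs (unique molecular identifiers, each counting 1 captured molecule) were kept, which left 9362 of 14289 in follicle 1 and 7843 of 15548 in follicle 2. The kept barcodes held 111226504 and 108920601 UMIs, with medians of 11254.5 and 13902 UMIs per cell, so a level of 3 UMIs corresponded to 0.0270 CPM (counts per 1e6 UMIs) in follicle 1 and 0.0275 CPM in follicle 2. The cells carried granulosa markers: the summed level of the 10 markers with a row was 24457 CPM in follicle 1 and 26118 CPM in follicle 2, with INHA the highest, although the granulosa gene AMH was at or near 0. Immune markers summed to 12.8 and 14.5 CPM, endothelial markers to 17.1 and 11.8 CPM with CDH5 at or near 0, and theca or stromal markers to 317 and 524 CPM, nearly all from INSL3. Red cell markers summed to 2.50 and 45.8 CPM, nearly all HBB, and their part in any follicle difference was not tested. A total of 56 barcode sequences occurred in both libraries, 18 of them kept in both. All intervals given are 95% intervals that cover counting error only.

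The early response genes did not move together between the follicles. FOS was higher in follicle 2, NR4A1 was higher in follicle 1, and JUNB, ATF3, EGR1 and DUSP1 stayed within 1.5-fold. These 6 genes reached 200 UMIs in a follicle, and of them 1 was at least 1.5-fold higher and 1 at least 1.5-fold lower in follicle 2. Over the 10049 genes that reached 200 UMIs, 1.8% were higher and 3.85% lower by as much. The median log2 ratio of follicle 2 to follicle 1 was −0.15 over the 6 genes and −0.0019 over all genes.

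**Figure D1:**
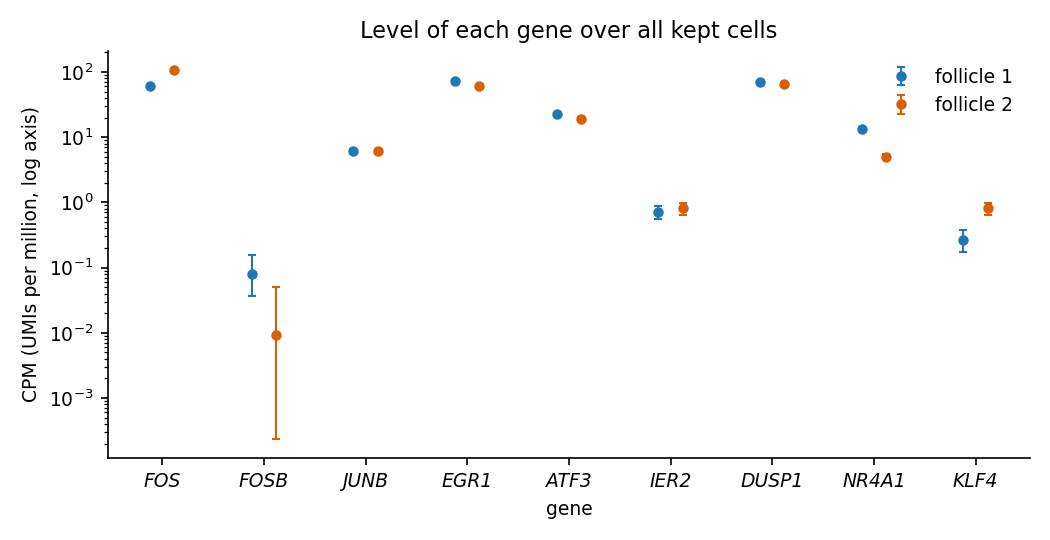
Level of the 9 early response genes with a row in each follicle, in CPM on a log axis, over all kept cells. Points are summed levels and bars are exact Poisson 95% intervals. FOS sits higher in follicle 2 (108 against 61.9 CPM), NR4A1 sits higher in follicle 1 (13.4 against 5.02 CPM), and FOSB lies near 0 in both.

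FOS (ENSSSCG00000002383, chr7:98449508-98451971), the founding subunit of the AP-1 transcription factor, was counted 6890 times in follicle 1 and 11777 times in follicle 2. Its level was 61.9 CPM (60.5 to 63.4) in follicle 1 and 108 CPM in follicle 2, a ratio of 1.75 (1.69 to 1.80). A FOS UMI was seen in 33.9% of cells of follicle 1 and 44.8% of follicle 2, and in 19.9% and 27.3% once each cell was thinned to 5000 UMIs to equalise depth. So more cells of follicle 2 carried FOS, and a few carried a great deal: the highest thinned cell had 14 FOS UMIs in follicle 1 and 21 in follicle 2. The variance of thinned FOS counts was 2.13 times the mean in follicle 1 and 3.07 times in follicle 2, where a Poisson count would give 1.

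The other AP-1 genes behaved differently from FOS. FOSB, a close relative of FOS, was nearly undetected, with 9 UMIs in follicle 1 and 1 in follicle 2. JUNB (ENSSSCG00000013735, chr2:66214086-66219435), a JUN protein that pairs with FOS, stood at 6.09 CPM in follicle 1 and 6.07 CPM in follicle 2, a ratio of 0.997 (0.894 to 1.11). ATF3 (ENSSSCG00000015595, chr9:130772259-130829678), a stress-induced relative that can bind alone or with JUN proteins, stood at 22.4 CPM in follicle 1 and 19.2 CPM in follicle 2, a ratio of 0.860 (0.811 to 0.912). The ATF3 interval lay below 1, but the difference was under 1.5-fold. JUNB counts scattered like Poisson counts, with a variance of 1.01 times the mean in each follicle, whereas ATF3 gave 1.32 and 1.20.

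Among the zinc finger factors, EGR1 (ENSSSCG00000014336, chr2:140440829-140445302), a direct target of ERK signalling, stood at 71.8 CPM in follicle 1 and 60.2 CPM in follicle 2, a ratio of 0.838 (0.811 to 0.866), or −0.25 on the log2 scale. This direction was not stable: as a mean of per-cell CPM, which weights shallow cells like deep ones, the log2 ratio of EGR1 was 0.084. EGR1 was the member whose spread between cells changed most: the variance was 1.89 times the mean in follicle 1 and 2.96 times in follicle 2. KLF4 (ENSSSCG00000005437), a factor of epithelial differentiation, had 29 UMIs in follicle 1 and 88 in follicle 2, or 0.261 and 0.808 CPM, a ratio of 3.10 (2.02 to 4.89). Since KLF4 stayed below 200 UMIs it was not among the genes counted above.

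NR4A1 (ENSSSCG00000031321, chr5:17403088-17407918) encodes an orphan nuclear receptor that gonadotropins are known to induce in steroid-making cells, and RefSeq annotates its locus in this build as a pseudogene. It was counted 1495 times in follicle 1 and 547 times in follicle 2. The level was 13.4 CPM (12.8 to 14.1) in follicle 1 and 5.02 CPM in follicle 2, a ratio of 0.374 (0.338 to 0.412). An NR4A1 UMI was seen in 10.1% of cells of follicle 1 and 5.94% of follicle 2, and after thinning in 5.05% and 2.52%. DUSP1 (ENSSSCG00000016991, chr16:51457924-51461095), the phosphatase that inactivates MAP kinases, stood at 70.0 CPM and 66.1 CPM, a ratio of 0.945 (0.916 to 0.976), and was seen in 45.8% and 47.4% of cells. Over the kept cells IER2, a small nuclear protein of the early response, had 79 UMIs in follicle 1 and 88 in follicle 2. The ratio of 1.14 (0.830 to 1.56) does not separate the follicles in these cells. No kind of cell in these libraries is expected to lack the members altogether, so the share of cells that carry a UMI from free RNA alone could not be read.

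To see which cells carried each gene, the follicles were integrated and clustered. The members were kept out of the clustering, and so were listed related genes where the files use the listed name. Listed genes under another name in the files, such as SHAS2, CTGF and CYR61, were not kept out and could shape the clusters. Of 7 clusters, 5 held at least 50 cells in a follicle. Cluster 0, led by TGFB3, ENPP2 and IL33, held 67.5% of kept cells in follicle 1 and 73.1% in follicle 2. Cluster 1, led by ARPP21, ALPK2 and SHAS2 (the name of HAS2 in the files), held 25.5% and 13.7%. Cluster 2, led by DEFB1, CCL26 and CEMIP, held no cell of follicle 1 and 672 cells of follicle 2. Cluster 3 was led by the cell division genes TOP2A, CDCA8 and DIAPH3 with 454 and 121 cells, and cluster 4 by SPP1, CTSS and ALDH1A2 with 174 and 184 cells. The clusters are numbered and carry no cell type name, and the genes that lead them are a description of how they were cut.

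**Figure D2:**
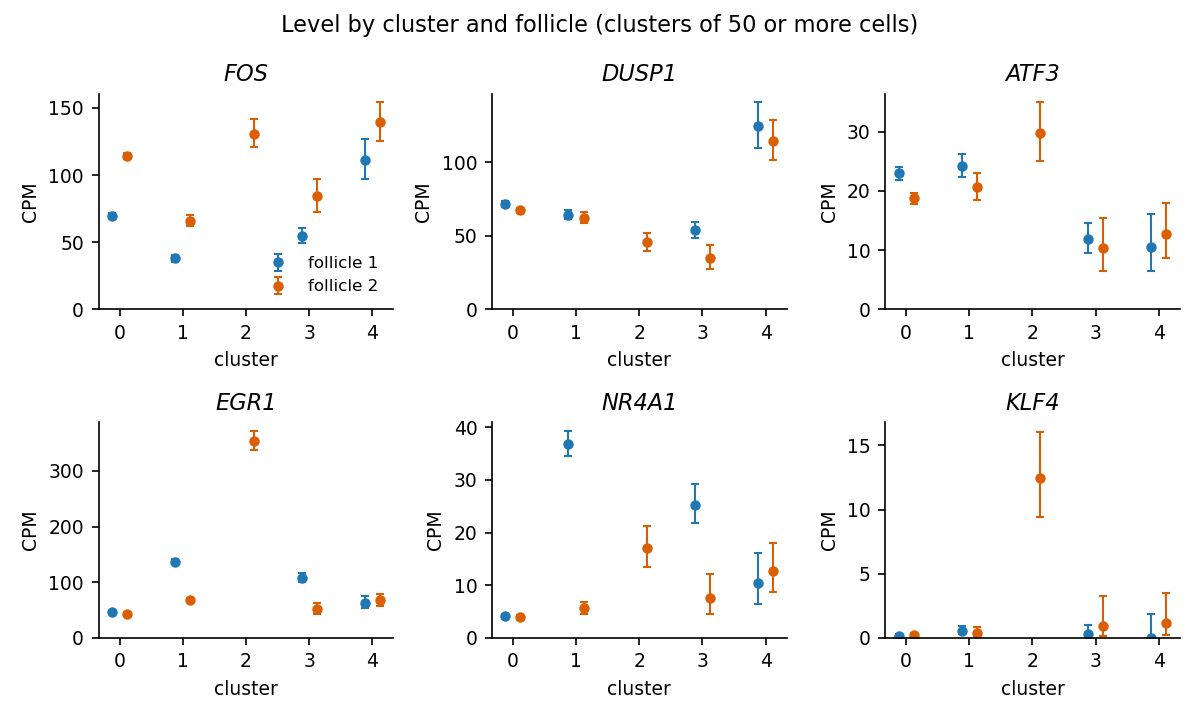
Level of 6 early response genes in clusters of at least 50 cells, in CPM from an axis at 0, with exact Poisson 95% intervals and 1 colour per follicle. EGR1 and KLF4 peak in cluster 2 of follicle 2 (354 and 12.4 CPM), NR4A1 peaks in cluster 1 of follicle 1 (36.8 CPM), and FOS and DUSP1 peak in cluster 4.

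The members peaked in different clusters. FOS was highest in cluster 4, at 111 CPM in follicle 1 and 139 CPM in follicle 2, and lowest in cluster 1, at 37.9 and 65.8 CPM. In follicle 1 the order for FOS was cluster 4, 0, 3, 1 with no overlap between neighbouring intervals, and in follicle 2 only clusters 4 and 2 overlapped. DUSP1 was likewise highest in cluster 4, at 125 CPM in follicle 1 and 115 CPM in follicle 2, and lowest among the dividing cells of cluster 3, at 53.9 and 35.0 CPM, the latter overlapping cluster 2. Immune markers summed to 23.5 CPM in cluster 4 of follicle 1 and 162 CPM in cluster 4 of follicle 2, and their part in its levels was not tested. ATF3 was lowest in clusters 3 and 4 (11.9 and 10.5 CPM in follicle 1, 10.3 and 12.7 CPM in follicle 2, where clusters 0 and 4 overlapped) and stood between 18.7 and 29.7 CPM in clusters 0, 1 and 2.

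EGR1 and NR4A1 followed another order. In follicle 1 EGR1 fell from 137 CPM in cluster 1 to 108 in cluster 3, 63.4 in cluster 4 and 45.7 in cluster 0, and NR4A1 from 36.8 CPM in cluster 1 to 25.2, 10.5 and 4.11 CPM in the same clusters. For both genes no neighbouring intervals overlapped, and cluster 1 lay 2.99-fold above cluster 0 for EGR1 and 8.96-fold above it for NR4A1. In follicle 2 both were highest in cluster 2, where EGR1 reached 354 CPM (337 to 371) and NR4A1 17.1 CPM (13.5 to 21.2), although the NR4A1 interval overlapped that of cluster 4. The other clusters of follicle 2 stood at 67.7 CPM or less for EGR1 and between 3.91 and 12.7 CPM for NR4A1, mostly with overlapping intervals.

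Of the 88 KLF4 UMIs of follicle 2, 59 came from the 672 cells of cluster 2, and all 29 of follicle 1 came from other clusters. Its level there was 12.4 CPM (9.46 to 16.0), against 0.217 CPM in cluster 0 of the same follicle. Without cluster 2, KLF4 stood at 0.261 CPM in follicle 1 and 0.278 CPM in follicle 2, a ratio of 1.07 (0.616 to 1.85). The higher KLF4 of follicle 2 thus did not appear in its other kept cells. The cells of cluster 2 were shallow, with a median of 6417 UMIs, and their granulosa markers summed to 5746 CPM, against 26118 CPM over the whole of follicle 2. Theca or stromal markers summed to 353 CPM there, led by TAGLN at 206 CPM, and their part in the level of EGR1 and KLF4 was not tested.

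Comparing the follicles within a cluster set FOS apart from NR4A1 and EGR1. FOS was higher in follicle 2 in each cluster that held at least 50 cells of both: the ratio was 1.64 (1.58 to 1.69) in cluster 0, 1.74 (1.59 to 1.89) in cluster 1, 1.54 (1.29 to 1.84) in cluster 3 and 1.25 (1.06 to 1.49) in cluster 4. NR4A1 did not separate the follicles in cluster 0, where it stood at 4.11 CPM in follicle 1 and 3.91 CPM in follicle 2, a ratio of 0.950 (0.810 to 1.11). In cluster 1 it stood at 36.8 CPM against 5.61 CPM, a ratio of 0.152 (0.121 to 0.189), and in cluster 3 the ratio was 0.302 (0.172 to 0.497). In cluster 4, with 21 and 32 UMIs, NR4A1 gave 1.21 (0.678 to 2.21), which did not separate the follicles. The intervals of clusters 0 and 1 lie far apart, but the difference between them was not tested, there being 1 library a follicle. EGR1 gave ratios of 0.919 (0.876 to 0.963) in cluster 0, 0.495 (0.462 to 0.530) in cluster 1, 0.482 (0.393 to 0.586) in cluster 3 and 1.06 (0.836 to 1.34) in cluster 4. Without cluster 2, EGR1 fell to 46.8 CPM in follicle 2, and its ratio over the remaining cells was 0.652 (0.629 to 0.675).

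At a finer resolution of 0.8, which gave 13 clusters, the NR4A1 of cluster 1 in follicle 1 came mainly from 998 cells led by CALCRL, ALPK2 and PTGS2. NR4A1 stood there at 72.9 CPM (67.9 to 78.2), whereas the 1315 cells of the other large piece, led by TMEM178A, HBB and FGF13, had 12.2 CPM (10.5 to 14.2). Leading genes were taken over both follicles together. HBB stood at only 1.73 CPM in cluster 1 of follicle 1, against 140 CPM in cluster 1 of follicle 2. Only 49 cells of follicle 2 fell in the piece led by CALCRL, with 10 NR4A1 UMIs or 16.5 CPM (7.94 to 30.4). EGR1 in the same piece was 176 CPM (168 to 184) in follicle 1 and 169 CPM (138 to 205) in follicle 2, which did not separate, and FOS was 48.9 CPM (44.8 to 53.2) and 124 CPM (97.6 to 156). In the piece led by TMEM178A, which held 952 cells of follicle 2, EGR1 did separate, at 108 CPM (103 to 114) in follicle 1 and 62.1 CPM (58.0 to 66.3) in follicle 2. NR4A1 there stood at 5.38 CPM (4.24 to 6.73) in follicle 2 and FOS at 28.9 and 66.4 CPM. In the piece led by CALCRL, FOS, EGR1 and NR4A1 each gave another relation between the follicles. This resolution was set as an alternative, and the piece was picked out after the values were seen.

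Co-expression across cells was weak. In cells thinned to 5000 UMIs (9343 in follicle 1 and 7738 in follicle 2, leaving out 19 and 105 shallower cells) 6 members were seen in at least 1% of cells of both follicles, which gives 15 pairs. Pearson's correlation of log(1 + UMIs) across the cells of 1 library, a description without a test, had a median over the pairs of 0.013 in follicle 1 and 0.0082 in follicle 2. It ran from −0.013 to 0.181 in follicle 1 and from −0.014 to 0.0943 in follicle 2, and was above 0 for 12 and 11 of the 15 pairs. Correlations this close to 0 in sparse counts are no finding.

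**Figure D3:**
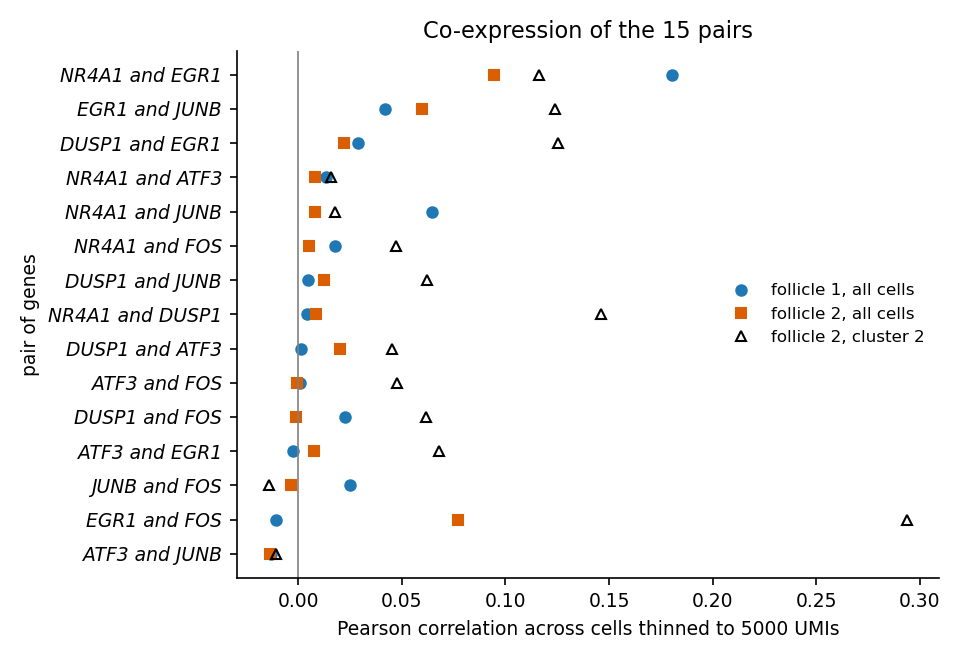
Pearson correlation across cells of log(1 + UMIs), after thinning to 5000 UMIs, for the 15 pairs of early response genes, sorted by the lower of the values of the follicles over all cells. NR4A1 and EGR1 form the top pair (0.181 in follicle 1, 0.0943 in follicle 2), most other pairs lie near 0, and in cluster 2 of follicle 2 the pair EGR1 and FOS reaches 0.294.

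NR4A1 and EGR1 were the pair that stood out, with 0.181 in follicle 1 and 0.0943 in follicle 2. Among the 9529 genes seen in at least 1% of thinned cells of both follicles, EGR1 was the gene most correlated with NR4A1, ranked by the lower value of the follicles. EGR1 was seen in 47.5% of the cells with an NR4A1 UMI and 20.8% of those without in follicle 1, and in 35.4% and 17.8% in follicle 2. Within clusters the pair gave 0.0294 in cluster 0 and 0.166 in cluster 1 of follicle 1, and 0.0578, 0.0862 and 0.116 in clusters 0, 1 and 2 of follicle 2. The correlation in follicle 1 was thus low inside cluster 0 and similar to the overall value inside cluster 1. Cluster 0 of follicle 1 carried NR4A1 in 1.79% and EGR1 in 15.3% of thinned cells. In the 2377 thinned cells of cluster 1 these shares were 12.8% and 38.9%. Detection this sparse limits a correlation, so the values of the clusters cannot be compared as strengths of co-expression.

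FOS and EGR1, often read jointly as a sign of stimulation, were hardly related over all cells, with −0.011 in follicle 1 and 0.0769 in follicle 2. In cluster 2 of follicle 2 they gave 0.294 over 580 thinned cells, of which 60.0% carried EGR1 and 33.6% FOS. Other pairs there included NR4A1 with DUSP1 at 0.146, DUSP1 with EGR1 at 0.125, EGR1 with JUNB at 0.124 and ATF3 with JUNB at −0.011. Only 5.86% of these cells carried NR4A1 and 3.62% JUNB, so values with these genes rest on few cells. FOS and DUSP1 shared their highest cluster but gave only 0.0227 and −0.00092 over all cells.

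Few cells had UMIs of many members at the same time at this depth. Of the thinned cells of follicle 1, 39.4% had no UMI of any of the 9 members, 40.1% had 1 member, 16.2% had 2, and 3.61% had 3. In follicle 2 these shares were 39.6%, 40.1%, 16.2% and 3.63%. The shares of the follicles were close although FOS and NR4A1 differed. Only 2 cells of 9343 in follicle 1 and 0 of 7738 in follicle 2 had 6 or more members, and the latter allows a share of up to 0.0477% (exact binomial interval). These shares count detected UMIs in thinned cells, not cells that express a member.

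For each member, the genes most like it were taken by the lower correlation of the follicles. EGR1 was most like THBS1, a secreted matrix glycoprotein (0.232 in follicle 1, 0.272 in follicle 2), then S1PR1, a receptor for sphingosine phosphate (0.200 and 0.239), and CTGF, a matricellular protein (0.205 and 0.181). NR4A1 was most like EGR1, THBS1 (0.222 and 0.0723) and TNFAIP8L3 (0.0761 and 0.0677). FOS was instead most like DDIT4, a stress-induced inhibitor of mTOR (0.136 and 0.123), CYP11A1, the enzyme that opens steroid synthesis (0.108 and 0.115), and ABL2 (0.0901 and 0.0924). No gene outside the members was among the leading 3 of both FOS and EGR1, though lists of 3 from 9529 genes would seldom share one. The leading genes of JUNB were EGR1, TRPM7 and IL1R1, those of ATF3 were CYFIP2, ERG28 and BATF3, and those of DUSP1 were KLF2, CTNNBIP1 and FSTL3, at correlations of 0.0597 or less. A score that averages the 6 members per cell was most like THBS1 (0.169 and 0.149), RGS4 (0.146 and 0.134), S1PR1, GABRB1, GABRA4, ID3, TNFRSF6B, SERINC5, RABEP1 and CEBPB. The cells of a library share depth, handling and cluster makeup, so these are descriptions of 2 libraries.

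A link with mitochondrial share, a usual sign of damaged cells, was then sought by cutting the kept cells of each follicle into 3 equal groups, or tertiles. The medians of the lowest and highest tertile were 1.43% and 4.08% of UMIs in follicle 1, and 1.73% and 4.27% in follicle 2. Levels below are CPM with mitochondrial UMIs left out of the denominator. In follicle 1, NR4A1 fell from 19.7 CPM in the lowest tertile to 13.0 in the middle and 8.30 in the highest, a ratio of highest to lowest of 0.420 (0.365 to 0.483). EGR1 went from 88.5 to 71.5 and 60.4 CPM, a ratio of 0.683, and JUNB from 7.23 to 6.13 and 5.34 CPM, a ratio of 0.739. FOS and DUSP1 went the other way, FOS from 57.5 to 61.1 and 73.0 CPM (ratio 1.27) and DUSP1 from 65.0 to 74.1 and 77.0 CPM (ratio 1.18, 1.12 to 1.25), while ATF3 gave a ratio of 0.964.

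In follicle 1, 0 of the 6 members were at least 1.5-fold higher and 1, NR4A1, was at least 1.5-fold lower in the highest tertile, beside 2.13% and 2.49% of 8529 genes. In follicle 2, 0 of the 5 members with 200 UMIs were higher by as much and 0 lower, beside 0.0834% and 0.429% of 8389 genes. KLF4, below that minimum, had 36 UMIs in the lowest and 16 in the highest tertile of follicle 2, a ratio of 0.459 (0.238 to 0.848), and 11 and 9 in follicle 1, a ratio of 0.881 (0.323 to 2.34). In follicle 2 NR4A1 stood at 5.30, 5.08 and 5.15 CPM from the lowest to the highest tertile, a ratio of 0.971. FOS gave 1.02, EGR1 0.894, ATF3 1.05, JUNB 0.968 and DUSP1 0.937 (0.885 to 0.992). Across single cells, Spearman's correlation of a member's thinned count with the mitochondrial share lay between −0.0793 (NR4A1) and 0.0304 (FOS) in follicle 1 and between −0.0188 (DUSP1) and 0.0129 (ATF3) in follicle 2.

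**Figure D4:**
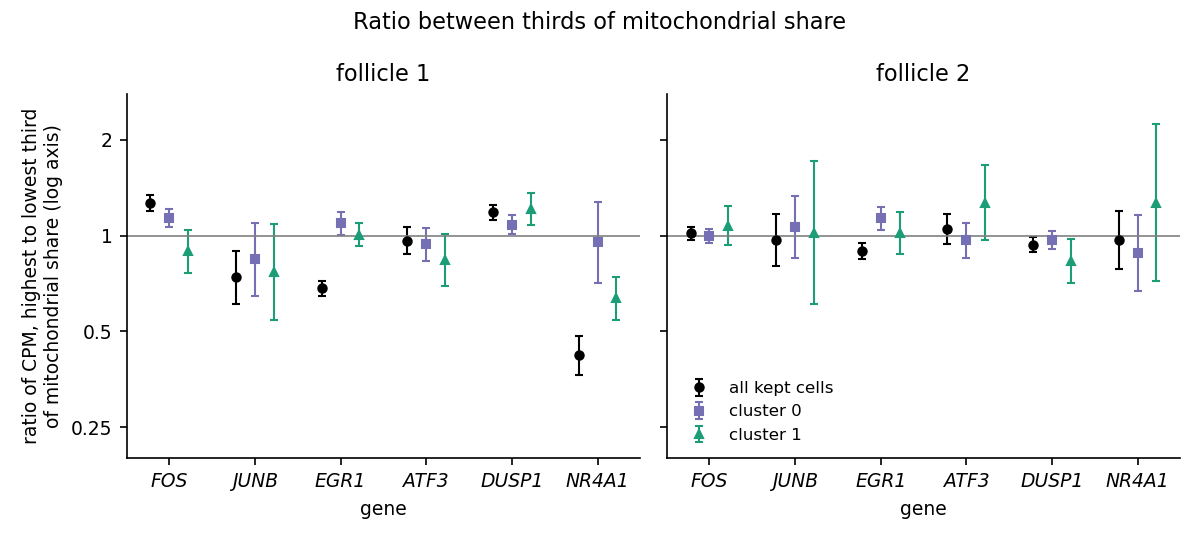
Ratio of CPM between the highest and lowest tertile of mitochondrial share, on a log axis, for 6 genes in each follicle, over all kept cells and within clusters 0 and 1, with exact conditional 95% intervals. In follicle 1 NR4A1 (0.420) and EGR1 (0.683) lie below 1 over all cells but near 1 inside cluster 0 (0.952 and 1.09). In follicle 2 all 6 lie close to 1 over all cells.

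The makeup of the tertiles moved with these values. In follicle 1, cluster 1 made up 40.8% of the lowest tertile and 11.0% of the highest, and cluster 0 rose from 51.7% to 82.7%. In follicle 2 cluster 1 made up 16.3% of the lowest tertile and a smaller share of the highest, and cluster 0 rose from 67.7% to 78.9%. Inside cluster 0 of follicle 1, cut into tertiles of its own, NR4A1 gave a ratio of 0.952 (0.708 to 1.28) and EGR1 1.09 (1.01 to 1.19). Inside cluster 1 of follicle 1, EGR1 gave 1.01 (0.927 to 1.09), while NR4A1 still went from 47.8 to 30.4 CPM, a ratio of 0.635 (0.542 to 0.744). FOS gave 1.14 (1.06 to 1.21) inside cluster 0 and 0.892 (0.764 to 1.04) inside cluster 1, so its higher level in the highest tertile was not seen in cluster 1. DUSP1 gave 1.08 (1.01 to 1.16) and 1.21 (1.08 to 1.36). The median depth of the tertiles differed little (11366 and 11008.5 UMIs in follicle 1). With the kept cells of follicle 1 split by depth, the NR4A1 ratio was between 0.392 and 0.437 in each depth group and that of EGR1 between 0.559 and 0.780. In follicle 2 EGR1 gave 1.14 (1.04 to 1.23) inside cluster 0 and 1.02 (0.874 to 1.19) inside cluster 1. By depth there it gave 0.741 (0.671 to 0.818) in the lowest group, 1.00 in the middle and 1.03 in the highest.

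The barcodes that the mitochondrial limit removed did not stand out for early response genes as a group. With 2000 to 5000 genes and at least 7% mitochondrial UMIs there were 193 barcodes in follicle 1 and 142 in follicle 2. FOS stood there at 60.1 CPM (48.5 to 73.7) in follicle 1 and 101 CPM (84.2 to 120.4) in follicle 2, against 63.7 and 111 CPM over the kept barcodes on the same scale. EGR1 stood at 81.5 CPM (67.9 to 97.0) and 86.7 CPM (71.1 to 105), against 73.8 and 62.0 CPM, and DUSP1 at 81.5 and 72.2 CPM, against 71.9 and 68.2 CPM. NR4A1 stood at 7.11 CPM (3.55 to 12.7) in follicle 1 and 11.2 CPM (6.14 to 18.9) in follicle 2, against 13.8 and 5.18 CPM, so it was lower in one follicle and higher in the other. Barcodes under 2000 genes, with medians of 1303 and 1180 UMIs, had FOS at 74.1 and 146 CPM and EGR1 at 76.9 and 106 CPM over all UMIs. In follicle 2 they had IER2 and KLF4 each at 5.00 CPM (59 UMIs), against 0.808 CPM over the kept barcodes. JUNB stood there at 13.0 against 6.07 CPM, while DUSP1 was lower, at 62.7 against 66.1 CPM. In follicle 1 these barcodes had IER2 at 0.899 CPM (7 UMIs), KLF4 at 0.771 CPM (6 UMIs) and JUNB at 6.42 CPM.

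The wider early response, from a list of 40 other genes, was also mixed. Of the 32 that reached 200 UMIs, 2 were at least 1.5-fold higher and 3 at least 1.5-fold lower in follicle 2, with a median log2 ratio of 0.0018. Over all 10049 genes counted, 1.8% were higher and 3.85% lower by as much. The lower genes were NR4A3, a sister of NR4A1 (1.92 against 0.496 CPM), SGK1, a kinase (26.8 against 14.7 CPM), and CTGF (182 against 47.6 CPM). The higher genes were HES1, a NOTCH target (0.674 against 2.19 CPM), and CEBPD (16.3 against 25.7 CPM). NR4A2, the other sister of NR4A1, stood at 3.43 and 3.50 CPM, and EGR2 at 9.15 and 8.75 CPM. The most abundant of the list were ZFP36L2 (2130 and 2019 CPM), which destabilises messengers, BTG1 (924 and 857 CPM) and BTG2 (207 and 244 CPM), all within 1.5-fold.

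Of 7 other dual specificity phosphatases, 0 were higher and 1 lower. The shares of all genes counted, for this list and those below, were 1.8% higher and 3.85% lower. The lower phosphatase was DUSP10, which acts on JNK and p38, at 5.91 CPM in follicle 1 and 2.66 CPM in follicle 2. DUSP6, which acts on ERK, stood at 42.7 and 63.1 CPM, just under 1.5-fold, DUSP4 at 115 and 108 CPM, and DUSP14 at 31.3 and 38.0 CPM. Of 19 upstream kinases, receptors and transcription factors 0 passed 1.5-fold in either direction, among them RPS6KA3 (392 and 477 CPM), CREM (153 and 159 CPM), MAP2K1 (129 and 137 CPM) and the factor SRF (2.52 and 2.15 CPM). Of 13 heat shock genes 0 passed either, led by HSPB1 (5841 and 6198 CPM), HSP90AA1 (3635 and 3708 CPM) and HSP90AB1 (1451 and 1594 CPM). Of the 16 heat shock genes listed 14 were matched to a row. HSPA1A and HSPA1B were not matched, so their levels were not analysed here.

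Of 13 genes of the ovulatory response, 1 was higher and 6 were lower in follicle 2, beside 1.8% and 3.85% of all genes counted, with a median log2 ratio of −0.36. AREG, an EGF-like ligand, was higher (2776 against 5321 CPM). The lower genes were PTGS2, the enzyme of prostaglandin synthesis (8.56 against 0.202 CPM), SHAS2, which makes hyaluronan (80.5 against 2.83 CPM), TNFAIP6, which links hyaluronan (924 against 229 CPM), INHBA (2036 against 523 CPM), EREG (29.3 against 16.0 CPM) and PTX3 (5.81 against 3.34 CPM). RGS2, a regulator of G protein signalling, stood at 1141 and 1461 CPM. This list was compared over whole libraries only. Cluster 1, with SHAS2 among its leading genes, held 25.5% of kept cells in follicle 1 and 13.7% in follicle 2. The finer piece led by CALCRL, ALPK2 and PTGS2 held 998 and 49 cells. The part of cell makeup in these differences was not tested.

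By mitochondrial share in follicle 1, the same lists gave 0 higher and 4 lower of 28 other early response genes. The counts were 1 and 2 of 7 phosphatases, 1 and 0 of 16 upstream genes and 1 and 0 of 13 heat shock genes. For the ovulatory genes they were 2 and 5 of 13. Over the 8529 genes counted in follicle 1, 2.13% were higher and 2.49% lower by as much. In follicle 2 none of these lists had a gene past 1.5-fold, beside 0.0834% higher and 0.429% lower of 8389 genes. No gene of the lists with 200 UMIs thus moved by as much in the same direction in both follicles. With so few genes of any kind past 1.5-fold in follicle 2, this says little about the lists. The correlation with the member score across cells had a median of 0.0357 in follicle 1 and 0.0368 in follicle 2 over 30 other early response genes, and −0.0099 and −0.020 over 13 heat shock genes. CEBPB (0.0873 and 0.102), CTGF (0.141 and 0.0794) and KLF10 (0.0709 and 0.0953) led the first list.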

How the data were processed

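Somatic cells of 2 follicles of 1 pig were measured with the 10x Genomics 3′ kit v3.1, with 1 library per follicle and 125409747 and 127414267 UMIs. The authors made the deposited counts, whole UMI counts per gene and called barcode, with Cell Ranger 6.0.2 on Sscrofa11.1, and deposited them without normalization or a further filter on cells. Which follicle each deposited count table holds was taken from the sample labels. The limits on genes and mitochondrial UMIs (13 genes) follow the study's methods; doublets were removed only in an alternative.

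UMIs were summed over the kept barcodes and given as CPM with exact Poisson intervals, ratios with exact conditional intervals and shares with Clopper-Pearson intervals, all at 95%. Genes with at least 200 UMIs on a side were counted as past a difference at 1.5-fold. Cells were thinned to 5000 UMIs without replacement. A fold between clusters or follicles has no replicate behind it, and no p-value is given. Clusters came from Seurat 5.3.0 (R 4.3.3) with anchors, 2000 variable genes and 40 components. The variable genes left out the members and the list genes, except list genes under another name in the files, such as SHAS2, CTGF and CYR61. A resolution giving 6 clusters was planned, none of the steps tried gave 6, and 7 clusters at 0.26 were used instead. Other steps used Python 3.11.15, numpy 2.4.6, scipy 1.17.1, pandas 2.3.3 and scanpy 1.11.5, and were tested on simulated data. For 7356 genes the list repeats the identifier in place of a symbol.

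The members and lists were chosen with earlier results of these data known. Named genes were all members, list genes past 1.5-fold, the 3 most abundant of each list and the genes most correlated with a member in both follicles. Other genes named beside these (KLF10, NR4A2, EGR2 and SRF) were chosen after their values were seen. Alternatives changed the barcodes, doublet removal, library size, weighting, depth, cells, measure and clustering.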

Additional observations from a re-analysis of the deposited data

Results flagged for a closer look

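Over all kept cells, DUSP1 moved in opposite directions with the mitochondrial share in the follicles. In follicle 1 its level was higher in the highest tertile than in the lowest, a ratio of 1.18 (1.12 to 1.25), and in follicle 2 it was lower, a ratio of 0.937 (0.885 to 0.992). Inside cluster 0 of follicle 2 the ratio was 0.970 (0.909 to 1.04), an interval that holds 1, and inside cluster 1 it was 0.834 (0.710 to 0.978). By depth in follicle 2 it was 1.01 in the lowest group, 0.891 in the middle and 0.912 in the highest. Over all kept cells, the log2 ratio of follicle 2 was lower than that of follicle 1, with a difference of −0.34. DUSP1 gave log2 ratios of 0.243 in follicle 1 and −0.0932 in follicle 2, both under 1.5-fold. Over all genes counted, the median absolute log2 ratio was 0.163 and 0.0867, and the median log2 ratio 0.101 and 0.0243. Whether DUSP1 differs from other genes in this was not tested. Both intervals cover counting error only, and the difference between the follicles was not tested, since each is 1 library.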

How the results depend on the processing

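With 1 library a follicle from 1 pig, no value has a biological error, and FOSB, IER2 and KLF4 are limited by their few UMIs. No paired analysis was possible because each follicle has 1 library and no test was made. The median log2 ratio of the members between follicles (−0.15) was −0.038 as a mean of per-cell CPM, −0.048 in thinned cells, −0.083 in cluster 0 only, −0.28 in cluster 1 only and −0.043 with a minimum of 20 UMIs. The count of members lower in follicle 2 was 0 in cluster 0 only, and 2 (NR4A1 and EGR1) in cluster 1 only and without cluster 2; with a minimum of 20 UMIs 2 were higher (FOS and KLF4). Against mitochondrial share in follicle 1, the count of lower members was 0 in cluster 0 only, and 2 (NR4A1 and EGR1) with high Scrublet scores removed, in thinned cells, with mitochondrial UMIs in the denominator and as a mean of per-cell CPM. The median log2 ratio there (−0.25) was −0.027 in the middle group of depth and 0.022 in cluster 0 only. The median log2 range of the members between clusters in follicle 1 (1.38) was 1.75 at a resolution of 0.8. No member past 1.5-fold changed direction, but the log2 ratio of EGR1 between follicles (−0.25) was 0.084 as a mean of per-cell CPM and −0.019 in thinned cells. The settings without cluster 2, cluster 1 only for co-expression and mitochondrial share, and without the barcodes shared by the libraries were chosen after seeing the data.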
